A study of Sus scrofa with 20 samples.

Results

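CD antigens, the numbered surface molecules by which leukocytes are told apart, and the genes of the pig major histocompatibility complex (MHC, called SLA in the pig) were followed in the hearts of pigs after 3 schedules of coronary ischemia. A gene was included when the probe table of the array gave its probe set 1 symbol made of CD and a number, with at most 1 letter and 1 further digit, or a symbol that begins with SLA-. This gave 52 of the 6765 genes with a symbol, 40 CD genes and 12 SLA genes, and the brightest of each gene's probe sets on the 20 arrays stood for it. Each array measured total RNA from the heart of 1 female pig, 5 animals in each of 4 groups. In the RCS group, low-flow ischemia (coronary stenosis) of 90 min was repeated 6 times at intervals of 12 h. The RCO group had sessions of 2 occlusions of 10 min, each followed by 10 min of reperfusion, repeated 6 times at intervals of 12 h. The SWOP group had 1 such session of 2 occlusions and was sampled after 24 h of reperfusion. Control pigs were sham-operated. All animals were intact pigs with no label for genotype or age. For RCS and RCO the sources used here do not give the time from the last episode to sampling.

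MHC class I molecules present peptides from inside the cell to CD8 T cells and are found on nearly all cells. MHC class II molecules present peptides from engulfed material to CD4 T cells. Macrophages, dendritic cells and B cells are among the cells that make them. T cells recognise the peptide through a receptor held in a complex with the CD3 chains and need a second signal, given by CD80 or CD86 on the presenting cell. The heart holds resident macrophages and few lymphocytes at rest, and tissue injury brings in monocytes. Many other CD antigens are not limited to leukocytes: CD9, CD63, CD81 and CD151 are tetraspanins of many cell types, and CD46, CD55 and CD59 shield host cells from complement.

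The values are log2 signals as the authors deposited them, and a difference of 1 is a doubling. Differences were tested with limma over all 23999 probe sets, and a gene was called at a Benjamini-Hochberg adjusted p below 0.05. The number of arrays limits precision, and the standard error of a group difference had a median of 0.111 (log2). Each standard error rests on 1 estimate of spread shared by the 4 groups, also where their spreads differ. For CD163 the SD was 1.17 in RCO and 0.20 in RCS, and for CD53 it was 0.93 and 0.39. Array medians lay between 6.75 and 6.82. The first principal component held 48.9% of the variance. RCO replicates 2 and 3 scored 43.96 and 29.37 on it, within the RCS range of 26.38 to 64.30, whereas the other RCO arrays scored -18.34 to -3.56. Counts of called members that involve RCO, and members that lost a call in RCO against control, are therefore also given without these 2 arrays. The spike-in controls, added bacterial transcripts, were brightest on RCO replicate 1 and SWOP replicate 1 (mean log2 11.31 and 11.17, against 10.57 to 10.96 on the other arrays). In whole heart tissue, more cells of a type and more RNA per cell cannot be told apart. Of the 52 genes, 44 lay above the 30th percentile of signal over all probe sets. The 8 below it were CD1E, CD38, CD3G, CD4, CD5L, CD69, CD79B and CD80.

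In RCS against control, 22 of the 52 genes rose, 5 fell and 25 did not pass the test. The called share of 51.9% was close to that of all genes, of which 54.5% were called, 28.8% higher and 25.7% lower. The median difference was 0.18 over the 52 genes and 0.00 over all genes. In RCO against control, 13 rose and 0 fell, a share of 25% beside 15.6% of all genes called (11.3% higher). In SWOP against control, CD151 and CD82 rose and 0 fell, a share of 3.85% beside 8.16% of all genes (4.66% higher). This count depended on the fit: with array weights 5 members were higher and 5 lower, beside 26.5% of all genes called, and with only SWOP and control fitted 5 were higher and 2 lower, beside 20.4%. Of the 13 genes called in RCO, 12 were among the 27 called in RCS, all higher in both, and the same control arrays entered both comparisons. The exception was SLA-8. Another 24 genes were called against control in none of the 3 groups. When RCO replicates 2 and 3 were left out, 2 genes were called in RCO, CD83 and CD151, beside 7.32% of all genes. Leaving out RCO replicate 3 alone gave 6 genes, beside 8.51% of all genes. Fitting only RCO and control gave 2, again CD83 and CD151, beside 4.04% of all genes.

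**Figure D1:**
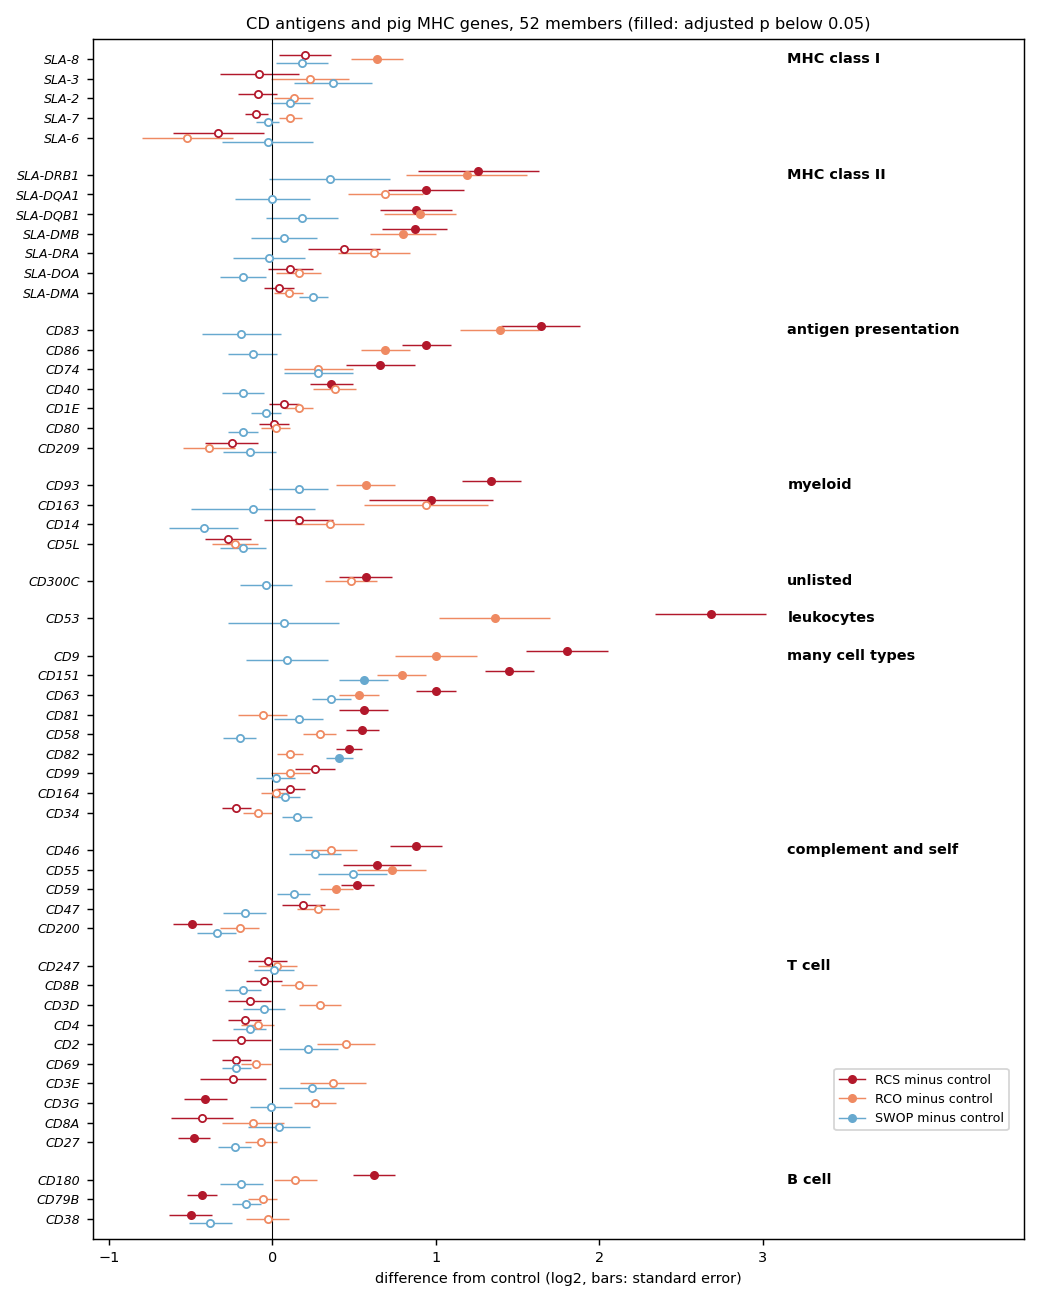
Difference from control (log2, horizontal axis) of the 52 genes, by class, for RCS, RCO and SWOP. Points are group differences, bars are standard errors from limma, and filled points had an adjusted p below 0.05. CD53 lies farthest to the right at 2.68 in RCS, while the T cell antigens lie left of 0 in RCS.

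Of the SLA genes called against control, all but SLA-8 were class II genes. SLA-DQA1 and SLA-DQB1 encode the 2 chains of the DQ molecule, SLA-DRA and SLA-DRB1 those of the DR molecule. In RCS 4 of the 7 class II genes rose, 0 fell and 3 did not pass, with a median of 0.87. In RCO 3 rose, with a median of 0.69, and in SWOP 0 rose and 0 fell, with a median of 0.07. Of all genes, 28.8% were called higher in RCS and 11.3% in RCO. Among the 3837 genes with a signal above 7.81, where the called class II genes lie, these shares were 36.0% and 15.0%. Averaged over the 7 genes, log2 signal was 9.97 to 10.44 on the RCS arrays, 9.93 to 10.71 on the RCO arrays, 9.49 to 10.21 on the SWOP arrays and 9.19 to 9.93 on the control arrays.

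SLA-DQA1 stood at 11.26, 12.00, 11.98, 11.83 and 11.57 on RCS replicates 1 to 5, at 11.07, 12.18, 11.91, 11.10 and 11.17 in RCO, at 11.30, 10.68, 10.69, 10.71 and 10.56 in SWOP, and at 10.34, 10.35, 11.13, 11.06 and 11.08 in control. Every RCS array lay above every control array, and RCO replicates 2 and 3 lay at the upper end of the RCS range or above it. The gene rose 1.91-fold in RCS (log2 0.94 ± 0.23, SE, n = 5 per group, limma adjusted p = 0.0026) and stood at 0.69 in RCO (adjusted p = 0.055). SLA-DQB1 had signals of 10.86 to 11.44 in RCS, 10.83 to 11.96 in RCO, 10.20 to 11.23 in SWOP and 10.04 to 10.83 in control. It rose by 0.88 ± 0.22 in RCS and by 0.90 ± 0.22 in RCO (adjusted p = 0.0027 and 0.013). RCS did not overlap control in SLA-DQB1, and RCO met it at 10.83. SLA-DRB1 rose by 1.26 ± 0.37 in RCS (adjusted p = 0.0099) and by 1.19 in RCO (adjusted p = 0.046). Its control arrays ranged most widely, at 8.38, 9.84, 10.50, 10.46 and 10.02, and all RCS arrays, at 10.78 to 11.38, were above them. In RCO, SLA-DRB1 no longer passed when control replicate 1, 2 or 5 or RCO replicate 2 or 3 was left out (adjusted p from 0.064 to 0.13). SLA-DRA, the partner chain, did not pass, with 11.66 ± 0.23 in RCS, 11.83 ± 0.52 in RCO, 11.19 ± 0.37 in SWOP and 11.22 ± 0.38 in control (SD, n = 5 each; adjusted p = 0.11 for RCS and 0.081 for RCO).

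**Figure D2:**
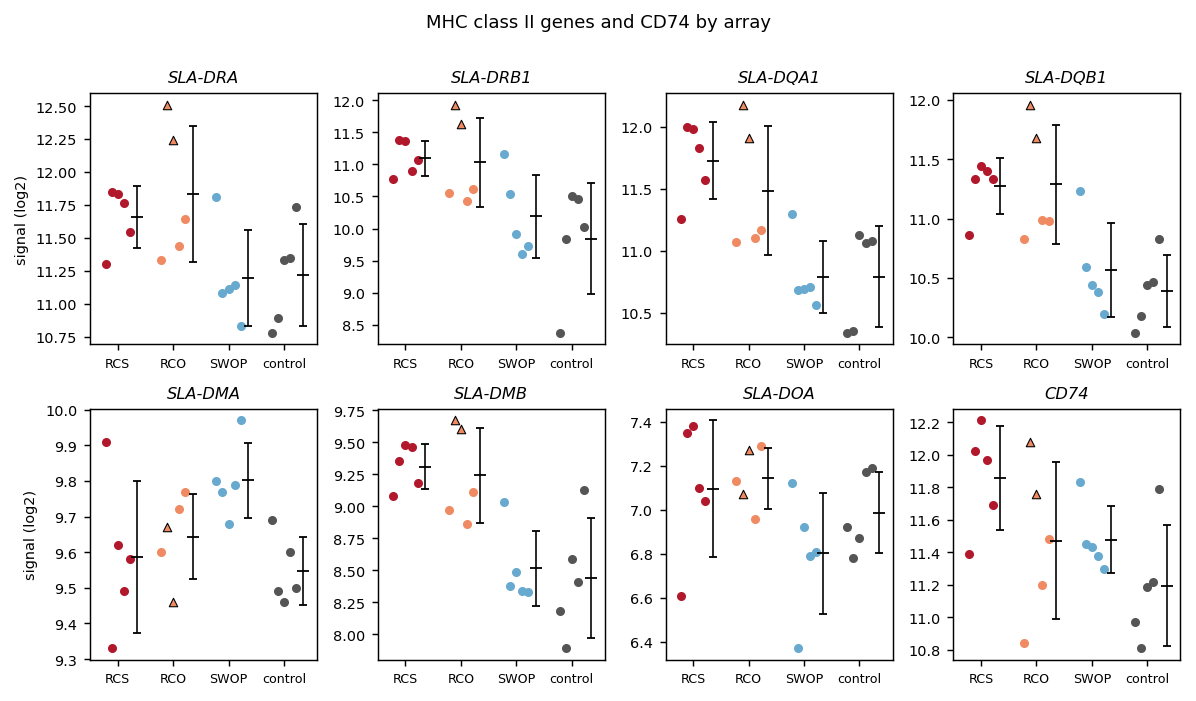
Log2 signal (vertical axes, which differ between panels and do not start at 0) of the 7 MHC class II genes and CD74 on each array, in RCS, RCO, SWOP and control. Points are animals, triangles are RCO replicates 2 and 3, and bars are the mean and SD of 5 arrays. RCO replicates 2 and 3 are the 2 highest arrays of the 20 for SLA-DRA, SLA-DRB1, SLA-DQB1 and SLA-DMB.

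SLA-DMA and SLA-DMB encode the chains of DM, which loads peptides onto class II molecules. SLA-DMB rose by 0.87 ± 0.20 in RCS and by 0.80 ± 0.20 in RCO (adjusted p = 0.0017 and 0.015). RCS arrays lay at 9.08 to 9.48, RCO arrays at 8.86 to 9.67, SWOP arrays at 8.33 to 9.03 and control arrays at 7.89 to 9.13. Control replicate 5, at 9.13, exceeded the lowest RCS array. SLA-DMA did not pass on its brightest probe set, at 9.59 ± 0.21 in RCS and 9.55 ± 0.10 in control (SD, n = 5 each, adjusted p = 0.75), while its second probe set rose by 0.74 in RCS and by 0.68 in RCO (adjusted p = 0.0014 and 0.013). The probe sets of SLA-DMA thus disagreed. SLA-DOA, which restrains DM, stood at 7.10 ± 0.31 in RCS and 6.99 ± 0.18 in control (adjusted p = 0.54). Leaving out RCO replicates 2 and 3, SLA-DQB1 and SLA-DMB stood at 0.54 each and SLA-DRB1 at 0.70 against control, and none of them passed (adjusted p = 0.12, 0.15 and 0.33). Without RCO replicate 3 alone SLA-DMB had an adjusted p of 0.051.

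CD74, the invariant chain that escorts class II molecules to the peptide compartment, rose 1.58-fold in RCS (0.66 ± 0.21, SE, adjusted p = 0.014). Its signals were 11.39, 12.02, 12.21, 11.97 and 11.69 in RCS, 10.84, 12.08, 11.76, 11.20 and 11.48 in RCO, 11.83, 11.45, 11.43, 11.38 and 11.30 in SWOP, and 10.97, 10.81, 11.19, 11.22 and 11.79 in control. RCS and control overlapped, since control replicate 5 exceeded 2 RCS arrays. CD74 stood at 0.28 in both RCO and SWOP (adjusted p = 0.42 and 0.40).

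Of the 5 MHC class I genes, SLA-8 alone was called against control, in RCO. SLA-2 and SLA-3 are classical class I genes, and SLA-6, SLA-7 and SLA-8 are non-classical ones. In RCS 0 of the 5 passed, with differences from -0.33 to 0.20, and the limma adjusted p lay between 0.26 and 0.79 (0 of 5 at an unadjusted p below 0.05). In SWOP 0 of 5 passed as well (adjusted p from 0.34 to 0.95, 0 of 5 at an unadjusted p below 0.05). SLA-2, the brightest, stood at 12.49 ± 0.10 in RCS, 12.71 ± 0.30 in RCO, 12.69 ± 0.04 in SWOP and 12.58 ± 0.25 in control (SD, n = 5 each). SLA-8 rose by 0.64 ± 0.16 in RCO (SE, adjusted p = 0.015), with arrays at 9.72, 10.43, 10.15, 10.16 and 10.02 in RCO against 9.42, 9.66, 9.21, 9.15 and 9.83 in control. Only the lowest RCO array met the control range. The second probe set of SLA-8 rose by 0.70 (adjusted p = 0.017). SLA-8 stood at 0.51 without RCO replicates 2 and 3 (adjusted p = 0.11). SLA-6 was at 6.81 on RCO replicate 1 and at 8.37 to 8.75 on the other 4 RCO arrays. Its dimmer probe set, at a mean of 5.13, fell in RCS (-0.29, adjusted p = 0.018).

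SLA genes resemble each other closely, and a probe set whose name ends in x_at or s_at may read several of them, as for SLA-2 and SLA-8, so a signal cannot be tied to 1 gene with certainty. They also vary among individual pigs. A further 8 probe sets named several SLA or locus symbols and were left out by the rule. Among them, a probe set for SLA-1 and a locus without a name ranged within every group, from 4.92 to 10.22 in RCS, 6.79 to 11.06 in RCO, 8.10 to 11.10 in SWOP and 6.54 to 11.30 in control. The part that sequence differences between animals play in these signals was not tested.

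Among the costimulatory molecules, CD83 and CD86 rose and CD80 did not pass. CD83, a marker of mature dendritic cells, had signals of 8.77, 8.70, 8.49, 9.13 and 8.73 in RCS, 8.09, 8.51, 9.25, 8.59 and 8.11 in RCO, 6.99, 6.94, 6.92, 6.91 and 6.90 in SWOP, and 6.77, 6.66, 6.91, 8.26 and 7.02 in control. All RCS arrays were above all control arrays, and control replicate 4 alone, at 8.26, reached into the RCO range. CD83 rose 3.12-fold in RCS (1.64 ± 0.24, SE, adjusted p = 3.4e-05) and 2.61-fold in RCO (1.39 ± 0.24, adjusted p = 0.0022), and stood at -0.19 in SWOP (adjusted p = 0.64). Its second probe set rose by 0.51 in RCS and by 0.48 in RCO (adjusted p = 0.011 and 0.048).

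CD86, a ligand of CD28 on T cells, had signals of 8.73, 8.53, 8.44, 8.67 and 8.41 in RCS, 8.22, 8.76, 8.71, 7.91 and 7.94 in RCO, 7.75, 7.28, 7.61, 7.49 and 7.35 in SWOP, and 7.72, 7.53, 7.27, 7.78 and 7.79 in control. Neither RCS nor RCO overlapped control. CD86 rose by 0.94 ± 0.15 in RCS and by 0.69 ± 0.15 in RCO (adjusted p = 1e-04 and 0.0086). The RCO difference was 0.41 without RCO replicates 2 and 3 (adjusted p = 0.081). CD80, the other ligand of CD28, lay at 5.33 ± 0.17 in RCS and 5.32 ± 0.06 in control (SD, n = 5 each), and its dimmer probe set fell in RCS (-0.24, adjusted p = 0.021). Of all genes, 23.3% were higher in RCS without overlap and 5.81% in RCO.

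CD40, the receptor for T cell help, rose by 0.36 ± 0.13 in RCS (adjusted p = 0.024) and stood at 0.38 in RCO (adjusted p = 0.055). Its call in RCS was lost without control replicate 1, RCS replicate 2 or RCS replicate 3 (adjusted p = 0.071, 0.060 and 0.076), and its 2 dimmer probe sets rose by 0.53 and 1.20 in RCS. CD1E and CD209, molecules of dendritic cells, stood at 0.07 and -0.25 in RCS and did not pass (adjusted p = 0.54 and 0.20).

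**Figure D3:**
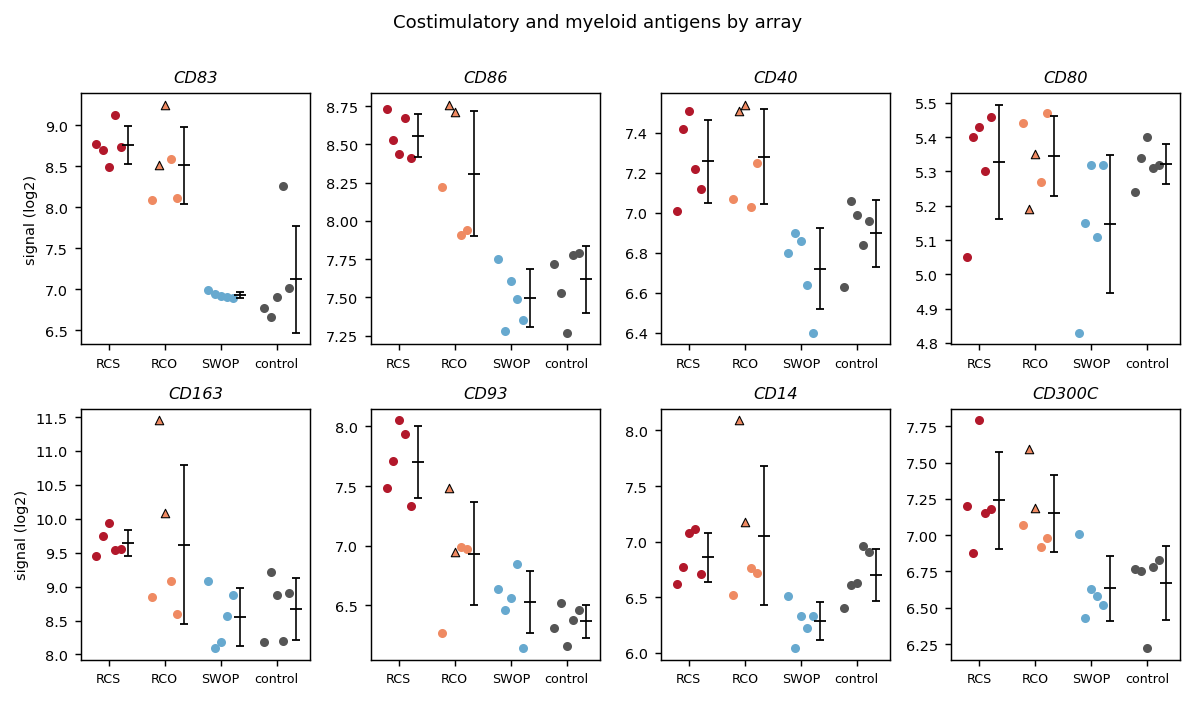
Log2 signal (vertical axes, which differ between panels and do not start at 0) of costimulatory and myeloid antigens on each array in RCS, RCO, SWOP and control. Points are animals, triangles are RCO replicates 2 and 3, and bars are the mean and SD of 5 arrays. CD83 and CD86 are higher on every RCS array than on every control array, while CD80 and CD14 overlap.

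The 4 myeloid antigens considered next did not move as a block. CD83, CD86, CD80 and CD209 were also on the myeloid list but were placed with the antigen-presenting molecules. CD93, a lectin-like receptor of monocytes and of endothelium, had signals of 7.48, 7.71, 8.05, 7.94 and 7.33 in RCS against 6.31, 6.52, 6.16, 6.38 and 6.46 in control, without overlap. It rose 2.52-fold in RCS (1.34 ± 0.18, adjusted p = 1.3e-05), whereas its second probe set fell by 0.36 (adjusted p = 0.013). In RCO it stood at 0.57 (adjusted p = 0.046), a call that did not hold when any 1 of the control arrays, or RCO replicate 2, 3, 4 or 5, was left out (adjusted p from 0.052 to 0.12). Without RCO replicates 2 and 3 CD93 stood at 0.38 (adjusted p = 0.27). CD163, the hemoglobin scavenger receptor of macrophages, had signals of 9.45, 9.74, 9.94, 9.54 and 9.56 in RCS and 8.19, 9.21, 8.87, 8.20 and 8.90 in control. It rose by 0.97 ± 0.38 in RCS (adjusted p = 0.043), and its second probe set rose by 0.58 (adjusted p = 0.023). On its brightest probe set all RCS arrays lay above all control arrays (23.3% of all genes were higher without overlap). This probe set no longer passed when control replicate 1, 3, 4 or 5 or any RCS array was left out (adjusted p from 0.051 to 0.096). It kept its call in 7 of 18 alternative fits, whose limma adjusted p ranged from 0.0014 to 0.096. In RCO, replicates 2 and 3 stood at 11.45 and 10.09 for CD163 and the others at 8.60 to 9.09 (adjusted p = 0.12 against control).

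CD14, the coreceptor for bacterial endotoxin on monocytes, did not pass against control. It stood at 6.86 ± 0.22 in RCS, 7.05 ± 0.63 in RCO, 6.29 ± 0.17 in SWOP and 6.70 ± 0.23 in control (SD, n = 5 each; adjusted p = 0.56, 0.29 and 0.21), and its second probe set fell by 0.52 in RCS (adjusted p = 0.00025). CD5L, a protein secreted by macrophages, stood at -0.27 in RCS (adjusted p = 0.13). CD300C, a receptor of myeloid cells that was in none of the lists, rose by 0.57 ± 0.16 in RCS (adjusted p = 0.0072). Its RCS arrays, at 6.88 to 7.79, all lay above the control arrays, at 6.22 to 6.83. Beside these genes, 11 macrophage and monocyte genes that are not CD antigens were measured. In RCS 6 of them rose and 1 fell (median 1.47), in RCO 5 rose and 0 fell (median 0.61), and in SWOP 1 rose and 1 fell (median 0.28). Of all genes, 28.8%, 11.3% and 4.66% were called higher in RCS, RCO and SWOP. AIF1, a protein of activated macrophages, rose by 2.12 in RCS and by 1.40 in RCO (adjusted p = 2.3e-06 and 0.0018). FCER1G, a signalling chain of Fc receptors, rose by 2.21 and 1.21, and SPI1, a transcription factor of myeloid cells, by 1.47 and 0.61. SPI1 also rose in SWOP, by 0.68 (adjusted p = 0.025), where AIF1 and FCER1G did not pass (0.28 and 0.29, adjusted p = 0.46 and 0.52). The part that macrophage number plays in the CD and SLA signals was not tested.

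CD53 and the other tetraspanins, small membrane proteins that gather partner proteins into platforms, included the 2 members of largest difference between RCS and control among the 52, CD53 and CD9. The family was put together after the values had been seen. In RCS all 6 members rose, with a median of 1.23, and none overlapped control (23.3% of all genes were higher without overlap). In RCO 4 of 6 rose, with a median of 0.66, and in SWOP 2 of 6, with a median of 0.26. Of all genes, 11.3% were called higher in RCO and 4.66% in SWOP. Averaged over the 6 genes, log2 signal was 10.79 to 11.40 in RCS, 9.96 to 10.80 in RCO, 9.92 to 10.11 in SWOP and 9.64 to 9.93 in control. Without these 6 genes, 21 of 46 were called in RCS, 16 higher and 5 lower, a share of 45.7% beside 54.5% of all genes. The share called higher was 34.8%, beside 28.8% of all genes.

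CD53, which is made by leukocytes of all kinds, had signals of 10.88, 11.22, 11.37, 11.08 and 10.36 in RCS, 8.75, 10.85, 10.46, 9.25 and 9.01 in RCO, 8.82, 8.17, 8.40, 8.19 and 8.30 in SWOP, and 8.02, 7.66, 8.02, 9.08 and 8.73 in control. It rose 6.41-fold in RCS (2.68 ± 0.34, SE, adjusted p = 9e-06) and 2.57-fold in RCO (1.36 ± 0.34, adjusted p = 0.016), and differed by 0.07 in SWOP (adjusted p = 0.91). RCO replicates 2 and 3 lay in the RCS range and the other 3 RCO arrays near the controls. With both left out, the RCO difference was 0.70 (adjusted p = 0.15), and without RCO replicate 3 alone 1.16 (adjusted p = 0.055). Its other probe sets rose by 2.57 and 1.20 in RCS, but they did not both pass in RCO.

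CD9, a tetraspanin of many cell types, rose 3.47-fold in RCS (1.80 ± 0.25, adjusted p = 2.4e-05), with signals of 11.00, 11.05, 11.46, 10.87 and 10.14 against 8.97, 8.89, 9.11, 9.55 and 9.02 in control. In RCO it rose by 1.0 (adjusted p = 0.016), with RCO replicates 2 and 3 at 10.78 and 10.87 and the others at 9.35, 9.88 and 9.67. Without RCO replicate 3, or without both, CD9 stood at 0.81 and 0.53 (adjusted p = 0.057 and 0.16). CD63, a tetraspanin of late endosomes and lysosomes, rose by 1.0 ± 0.12 in RCS and by 0.53 ± 0.12 in RCO (adjusted p = 4e-06 and 0.0084). Its signals were 13.05, 13.26, 13.34, 13.21 and 12.91 in RCS, 12.69, 12.97, 12.96, 12.45 and 12.33 in RCO, 12.64, 12.55, 12.59, 12.49 and 12.30 in SWOP, and 12.00, 12.15, 12.28, 12.09 and 12.25 in control. None of the 15 arrays of the ischemic groups reached down to the highest control. CD63 stood at 0.34 in RCO without replicates 2 and 3 (adjusted p = 0.086).

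CD151, which binds laminin-binding integrins, was the gene called in all 3 groups. Its signals were 11.20, 11.70, 11.98, 11.79 and 11.39 in RCS, 10.71, 10.83, 11.53, 10.97 and 10.71 in RCO, 10.56, 10.65, 10.97, 10.80 and 10.63 in SWOP, and 10.13, 10.18, 10.15, 10.11 and 10.23 in control. The controls spanned only 10.11 to 10.23, and every array of the other groups was above them (9.64% of all genes were higher without overlap in SWOP). CD151 rose by 1.45 ± 0.15 in RCS, by 0.79 ± 0.15 in RCO and by 0.56 ± 0.15 in SWOP (adjusted p = 1.3e-06, 0.0030 and 0.029), and these 3 differences share the same 5 controls. In SWOP, CD151 no longer passed when control replicate 2 or 4 or SWOP replicate 2, 3, 4 or 5 was left out (adjusted p from 0.054 to 0.071), or after quantile normalization (0.43, adjusted p = 0.10). CD82 rose by 0.47 ± 0.08 in RCS and by 0.41 ± 0.08 in SWOP (adjusted p = 0.00023 and 0.012) but stood at 0.11 in RCO (adjusted p = 0.41). Its second probe set did not pass in RCS (0.18, adjusted p = 0.15) or in SWOP. RCO was lower than SWOP in CD82, at 7.35 to 7.54 in RCO and 7.57 to 7.98 in SWOP (-0.30, adjusted p = 0.032; 4.01% of all genes were lower without overlap). That call was lost in 6 of the 10 fits with 1 array left out (adjusted p from 0.055 to 0.095) and without RCO replicates 2 and 3 (-0.28, adjusted p = 0.087). CD81 rose by 0.56 ± 0.15 in RCS (adjusted p = 0.0058) and stood at -0.06 in RCO (adjusted p = 0.83).

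**Figure D4:**
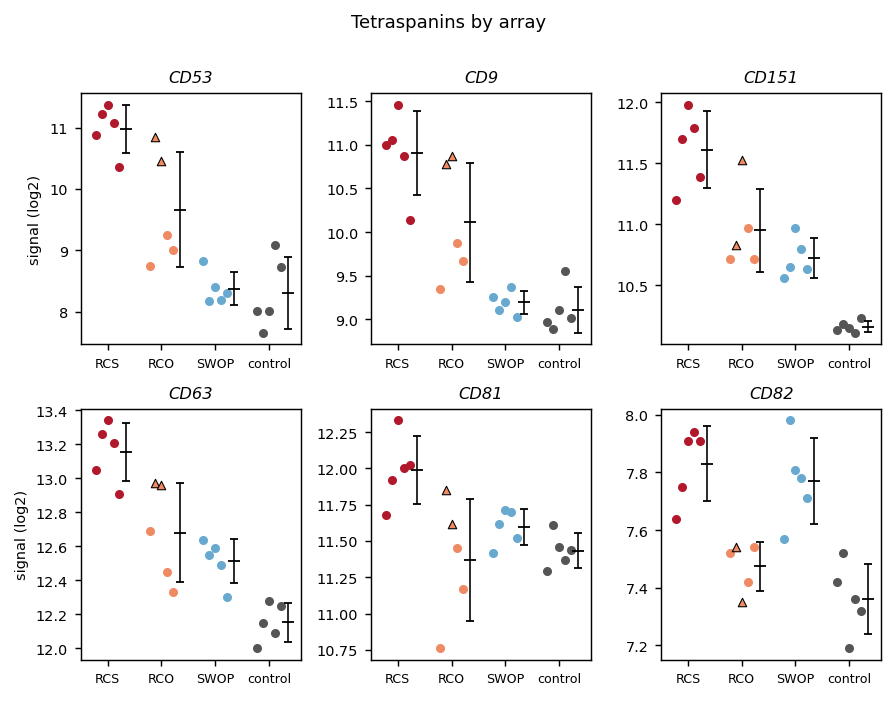
Log2 signal (vertical axes, which differ between panels and do not start at 0) of 6 tetraspanins on each array in RCS, RCO, SWOP and control. Points are animals, triangles are RCO replicates 2 and 3, and bars are the mean and SD of 5 arrays. The RCS arrays of each gene lie above all its control arrays, and RCO replicates 2 and 3 lie near RCS for CD53 and CD9.

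CD58, the ligand of CD2 on T cells, rose by 0.55 ± 0.10 in RCS (adjusted p = 0.00025), with arrays at 8.21 to 8.61 in RCS and 7.64 to 8.12 in control. CD99 and the sialomucin CD164, both found on many cells, stood at 0.26 and 0.11 in RCS and did not pass (adjusted p = 0.069 and 0.33). CD34, a marker of endothelium in the heart, stood at 8.89 ± 0.14 in RCS and 9.11 ± 0.06 in control (SD, n = 5 each; adjusted p = 0.056) and was lower in RCS than in SWOP by 0.38 (adjusted p = 0.0047). Of 10 other endothelial genes, 1 rose in RCS and 0 fell. Of 6 fibroblast genes 4 rose in RCS, and of 11 cardiomyocyte genes 2 rose and 7 fell. Of all genes, 28.8% were called higher in RCS and 25.7% lower, and 11.3% were called higher in RCO and 4.66% in SWOP. Of 5 smooth muscle and pericyte genes 3 rose in RCS (median 1.42) and 1 each in RCO and SWOP. CNN1, a protein of the smooth muscle contractile apparatus, rose by 2.22 in RCS, 1.92 in RCO and 1.49 in SWOP (adjusted p = 2e-06, 0.00020 and 0.0065). TAGLN and ACTA2, of the same list, rose in RCS by 1.57 and 1.42 (adjusted p = 0.0013 and 0.0014). In RCO they stood at 0.66 and 0.42 and in SWOP at -0.06 and 0.16, and did not pass (adjusted p from 0.23 to 0.93). Of 4 adipocyte genes 2 fell in RCS, and of 2 erythrocyte genes 0 were called. The part of these cells in the CD and SLA signals was not tested.

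All 3 complement regulators rose in RCS, and 2 of them in RCO, beside 28.8% and 11.3% of all genes called higher. CD46, a cofactor for the cleavage of complement C3b, had signals of 10.72, 10.54, 11.03, 11.09 and 11.06 in RCS against 9.66, 10.23, 9.99, 10.30 and 9.85 in control and rose by 0.88 ± 0.16 (adjusted p = 0.00023). CD59, which blocks the membrane attack complex, rose by 0.52 ± 0.10 in RCS and by 0.39 ± 0.10 in RCO (adjusted p = 0.00032 and 0.015). CD55, which speeds the decay of complement convertases, rose by 0.64 ± 0.21 in RCS and by 0.73 ± 0.21 in RCO (adjusted p = 0.017 and 0.030). In RCS no array of these 3 genes overlapped control, as for 23.3% of all genes in the higher direction. Without RCO replicates 2 and 3 neither passed in RCO, CD55 at 0.36 and CD59 at 0.33 (adjusted p = 0.17 and 0.10). In RCO, CD59 had an adjusted p of 0.051 without RCO replicate 3 alone, and CD55 had 0.076, 0.059 and 0.073 without control replicate 2, control replicate 5 and RCO replicate 3. CD55 had an adjusted p of 0.053 in RCS without RCS replicate 3, the mean of its probe sets did not pass (0.18, adjusted p = 0.17), and 1 of its dimmer probe sets fell in RCS (-0.24, adjusted p = 0.016).

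CD47 and CD200 restrain macrophages. CD200 fell by 0.49 in RCS (adjusted p = 0.0024), with signals of 6.19, 6.57, 6.35, 6.24 and 6.47 in RCS and 6.78, 6.77, 6.60, 7.36 and 6.75 in control, without overlap (16.9% of all genes in the lower direction). CD47 stood at 0.19 in RCS (adjusted p = 0.22), whereas a second probe set rose by 0.83 (adjusted p = 2.8e-05) and a further one differed by -0.10 (adjusted p = 0.53).

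None of the 10 T cell antigens rose against control in any group. Their signals lay below the middle of all probe sets, and CD3G, CD4 and CD69 lay below the 30th percentile. In RCS CD27 and CD3G fell and 8 did not pass, with a median of -0.20. Of all genes, 25.7% were called lower in RCS, and of the 978 genes of dimmest signal 40.7%. In RCO and SWOP 0 of 10 were called by limma, with medians of 0.10 and -0.03, adjusted p of at least 0.11 and 0.15, and 2 and 2 genes at an unadjusted p below 0.05. The mean over the 10 genes was 5.57 to 5.73 on the RCS arrays, 5.84 to 6.33 on the RCO arrays, 5.75 to 6.04 on the SWOP arrays and 5.76 to 6.18 on the control arrays. The RCS arrays thus lay below all others. CD27, a costimulatory receptor of T cells, had signals of 5.53, 5.30, 5.28, 5.35 and 5.48 in RCS, 6.05, 5.77, 5.61, 5.52 and 6.06 in RCO, 5.82, 5.53, 5.45, 5.69 and 5.69 in SWOP, and 5.82, 5.98, 5.79, 5.92 and 5.84 in control. It fell by 0.48 in RCS (adjusted p = 0.00085). CD3G, a chain of the T cell receptor complex, had signals of 4.83, 4.83, 5.01, 5.04 and 5.08 in RCS, 5.62, 6.14, 5.44, 5.52 and 5.45 in RCO, 5.72, 5.31, 5.45, 5.10 and 5.20 in SWOP, and 5.38, 5.33, 5.27, 5.22 and 5.65 in control. It fell by 0.41 in RCS (adjusted p = 0.014), without overlap (16.9% of all genes in the lower direction). The call was lost after quantile normalization (-0.28, adjusted p = 0.089).

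Among dim genes as a whole, more fell than rose in RCS. When all probe sets were divided by signal into 3 equal parts, 40.7% of the 978 genes in the dimmest part fell in RCS and 9.3% rose, and of the 3837 genes in the brightest part 19.6% fell and 36.0% rose. CD27, CD3G, CD38 and CD79B lie in the dimmest part, at or below 5.71, and CD53, CD9, CD63, CD151 and the called class II genes in the brightest, above 7.81. The part of signal level in these differences was not tested. CD3D and CD3E, the other CD3 chains, stood at -0.14 and -0.24 in RCS (adjusted p = 0.41 and 0.33), the coreceptors CD4 and CD8A at -0.17 and -0.43 (adjusted p = 0.15 and 0.068), and CD247, the zeta chain, at -0.03 (adjusted p = 0.84). Of the 3 dimmer probe sets of CD247, 2 fell in RCS (-0.29 and -0.39, adjusted p = 0.015 and 0.011).

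**Figure D5:**
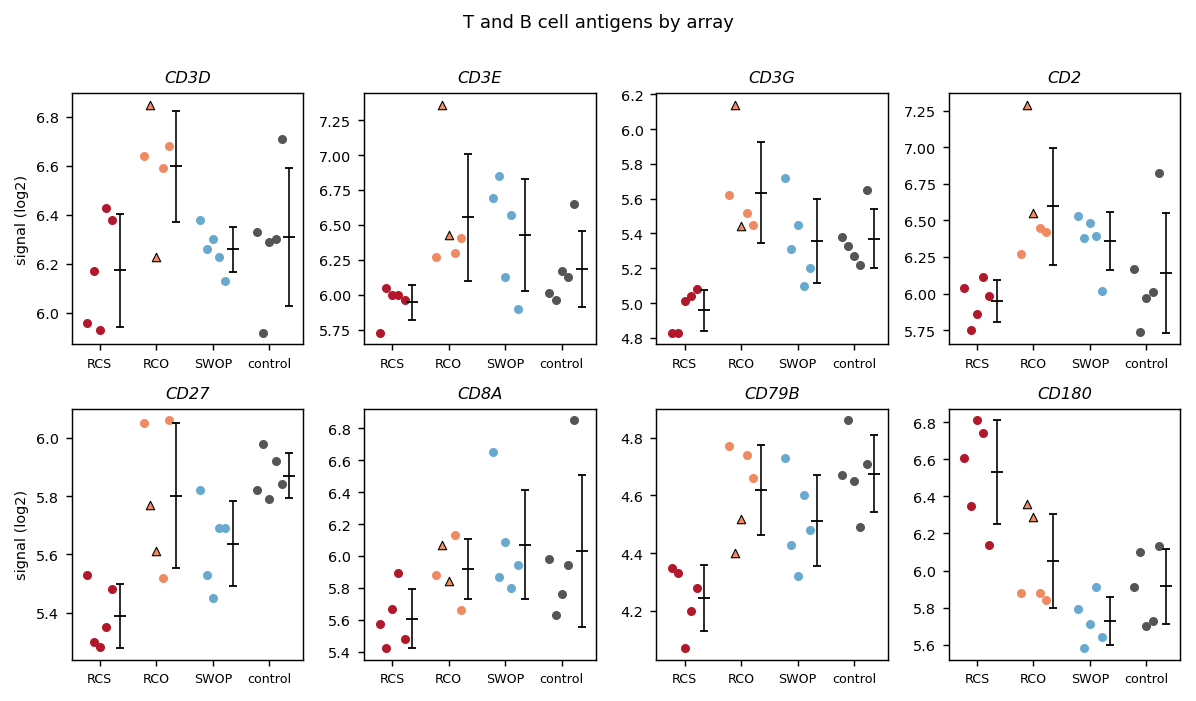
Log2 signal (vertical axes, which differ between panels and do not start at 0) of T and B cell antigens on each array in RCS, RCO, SWOP and control. Points are animals, triangles are RCO replicates 2 and 3, and bars are the mean and SD of 5 arrays. CD3G and CD27 are lower on every RCS array than on every control array, and RCO replicate 2 is the highest RCO array for CD2, CD3D, CD3E and CD3G.

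RCS was lower than RCO in 5 of the 10 T cell antigens and higher in 0, while 9.9% of all genes were lower in that comparison (16.5% in the dimmest part). CD3G was lower by 0.68 ± 0.13 (adjusted p = 0.0033), and CD2, an adhesion receptor of T cells, was lower by 0.65 ± 0.18, at 5.75 to 6.11 in RCS and 6.27 to 7.29 in RCO (adjusted p = 0.021; 3.44% of all genes were lower without overlap). CD3E, CD3D and CD27 differed by -0.61, -0.42 and -0.41 (adjusted p = 0.037, 0.032 and 0.011). RCO replicate 2 was the highest RCO array for 4 of these genes, at 7.29 for CD2 and 7.36 for CD3E. With RCO replicates 2 and 3 left out, CD2 and CD3E stood at -0.43 and -0.38 (adjusted p = 0.057 and 0.10), and the other 3 kept their calls. CD3E also missed the threshold when RCO replicate 2 or 5 or RCS replicate 1, 2, 3 or 4 was left out (adjusted p from 0.055 to 0.074), CD3D for RCO replicate 1, 2, 4 or 5 or RCS replicate 1, 2 or 3 (0.051 to 0.098), and CD2 for RCS replicate 3 (0.055). Fitted with only the 2 groups, CD3G alone of the 5 passed.

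The B cell antigens split, with CD40, also on their list, placed among the antigen-presenting molecules. CD180, a toll-like receptor of B cells that myeloid cells carry as well, rose by 0.62 ± 0.13 in RCS (adjusted p = 0.0012), with signals of 6.61, 6.35, 6.81, 6.74 and 6.14 in RCS and 5.91, 6.10, 5.70, 5.73 and 6.13 in control, without overlap. CD79B, the signalling chain of the B cell receptor, fell by 0.43 (adjusted p = 0.0010), at 4.35, 4.33, 4.07, 4.20 and 4.28 in RCS and 4.67, 4.86, 4.65, 4.49 and 4.71 in control. CD38, an ectoenzyme of plasma cells and other leukocytes, fell by 0.50 (adjusted p = 0.0035), at 4.89 to 5.32 in RCS and 5.42 to 5.81 in control. None of the 3 was called against control by limma in RCO or SWOP (0 and 1 at an unadjusted p below 0.05). RCS was lower than RCO in CD38 by 0.48 and in CD79B by 0.37 (adjusted p = 0.017 and 0.012), the first of them at 0.051 without RCS replicate 3. Of 4 B cell and plasma cell genes outside the CD series, 3 rose in RCS: BLNK and BTK, signalling proteins that B cells and myeloid cells share, by 2.50 and 1.33, and JCHAIN, the joining chain of secreted antibodies, by 2.58 (adjusted p = 5.7e-06, 1.8e-05 and 0.00048). JCHAIN and BLNK also rose in RCO, by 2.20 and 1.43 (adjusted p = 0.010 and 0.0061). Of all genes, 28.8% were called higher in RCS and 11.3% in RCO.

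The 3 protocols were also compared with each other. RCS against SWOP had 19 members higher and 3 lower, a share of 42.3% beside 38.0% of all genes. CD53 was higher by 2.61 ± 0.34, CD83 by 1.83, CD9 by 1.71, CD93 by 1.17, CD86 by 1.06 and CD58 by 0.75 (adjusted p from 2.7e-05 to 9e-05), and none of these 6 genes overlapped between the groups (17.9% of all genes were higher without overlap). The 3 lower genes were CD34, CD3G and CD79B, and of 10 fits with 1 array left out CD3G lost its call in 4 (adjusted p from 0.059 to 0.084) and CD79B in 5 (0.055 to 0.11). Among the higher genes CD14, CD163 and CD47 lost theirs in 8, 7 and 6 of the 10 (0.050 to 0.11). Over all alternative fits their adjusted p ranged from 0.00055 to 0.31, from 0.0005 to 0.089 and from 0.0093 to 0.11. CD14 and CD163 did not overlap between RCS and SWOP. SLA-DQA1, SLA-DMB and SLA-DQB1 were higher by 0.94, 0.80 and 0.70 (adjusted p = 0.0040, 0.0052 and 0.018), the last of them lost without SWOP replicate 5 (0.056). RCO against SWOP had 11 higher and 1 lower, a share of 23.1% beside 11.9% of all genes, of which CD83 and CD86 had the smallest p (1.58 and 0.81, adjusted p = 0.0015 and 0.0052). CD53 and CD9 differed by 1.29 and 0.92 (adjusted p = 0.024 and 0.029), and stood at 0.63 and 0.44 without RCO replicates 2 and 3 (adjusted p = 0.15 and 0.19). This count ranged from 4 to 17 when 1 array was left out, and was 5 without RCO replicates 2 and 3. It was 6 without RCO replicate 2 or 3, 5 without SWOP replicates 2, 3 or 4, and 4 without SWOP replicate 5.

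RCS against RCO had 9 members higher and 7 lower, a share of 30.8% beside 21.6% of all genes (11.7% higher). Without RCO replicates 2 and 3 it had 14 higher and 6 lower, beside 42.9% of all genes called, and 14 of the 16 calls were kept. All 6 tetraspanins were higher in RCS, CD53 by 1.32 ± 0.34, CD9 by 0.79, CD151 by 0.66, CD81 by 0.62, CD63 by 0.47 and CD82 by 0.36 (adjusted p from 0.0067 to 0.035), as were CD93, CD46 and CD180. Of these, CD9 missed the threshold when RCO replicate 1, 4 or 5 or RCS replicate 1, 2, 3 or 4 was left out (0.059 to 0.11). The same held of CD46 for RCO replicate 1, 4 or 5 or RCS replicate 3, 4 or 5 (0.051 to 0.080), and of CD180 for RCO replicate 1, 4 or 5 or RCS replicate 3 or 4 (0.051 to 0.068). Fitted with only the 2 groups, CD82 alone of the 9 higher genes passed, beside 3.93% of all genes called. The others, CD53, CD9, CD151, CD81, CD63, CD93, CD46 and CD180, had a limma adjusted p from 0.056 to 0.13. Class II genes and costimulatory molecules did not pass between RCS and RCO, with differences from -0.18 to 0.24 for the 7 class II genes and of 0.25 for CD83 and CD86. Leaving out RCS replicate 3 took the count of called members to 9, beside 9.11% of all genes.

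Genes that act with these antigens were read from lists. Of all genes, 54.5% were called in RCS (28.8% higher, 25.7% lower), 15.6% in RCO (11.3% higher) and 8.16% in SWOP (4.66% higher). Of 10 genes that process antigen for class II, 5 rose in RCS and 1 fell (median 0.77), 4 rose and 1 fell in RCO (median 0.39), and 0 rose and 1 fell in SWOP (median 0.19). CTSD, a lysosomal protease, rose by 2.05 ± 0.23 in RCS and stood at 0.50 in RCO (adjusted p = 3e-06 and 0.17). CTSS, the protease that trims CD74, rose by 2.12 ± 0.25 in RCS and by 1.12 in RCO (adjusted p = 4.1e-06 and 0.0085), and IFI30, a reductase that opens disulfide bonds of antigens, rose by 2.85 ± 0.36 and 1.61 (adjusted p = 7.3e-06 and 0.0078). Of 10 genes of class I processing, 7 rose in RCS and 5 in RCO, and 0 fell in either. PSMB8, a subunit of the immunoproteasome, rose by 0.70 in RCS and by 1.13 in RCO (adjusted p = 0.0021 and 0.00076), and PDIA3, a chaperone of class I assembly, by 1.04 in RCS (adjusted p = 0.00021). CANX, another chaperone of class I assembly, rose by 0.43 in RCS (adjusted p = 0.00050). Of 14 interferon response genes, 0 rose and 1 fell in RCS, and 2 rose in RCO. IFNG, the cytokine that induces class II, fell by 0.24 in RCS at a signal of 4.37 ± 0.11 in RCS and 4.61 ± 0.18 in control (SD, n = 5 each; adjusted p = 0.036). That signal lies in the dimmest part, at or below 5.71, where 40.7% of genes fell in RCS.

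Of 10 genes of T cell signalling and cytotoxicity, 4 rose and 2 fell in RCS (median 0.08), beside 28.8% of all genes called higher and 25.7% lower. LCP2, an adaptor of T cells and myeloid cells, rose by 1.96 (adjusted p = 6e-05), IL2RG, the common chain of cytokine receptors, by 1.31 (adjusted p = 0.00056), and GNLY, a granule protein of cytotoxic lymphocytes, fell by 0.69 (adjusted p = 0.0018). Of 5 neutrophil genes, 0 rose and 2 fell in RCS, and 3 of the 5 lay below the 30th percentile of signal. In the dimmest part of signal, 40.7% of all genes fell in RCS.

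Of the 52 genes, 21 had more than 1 probe set. In RCS against control, all probe sets of a gene had the same call in 10 of the 21, and in 4 genes, CD164, CD55, CD93 and SLA-DRB1, probe sets were called in opposite directions. The brightest probe set of SLA-DRB1, at a mean of 10.54, rose by 1.26 in RCS, and a dim one at 5.68 fell by 0.76 (adjusted p = 4.1e-05). The mean of all probe sets of SLA-DRB1 differed by 0.16 in RCS (adjusted p = 0.30). In RCO the probe sets of 13 of the 21 genes had the same call, and in SWOP those of 19, with no opposite calls in either.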

How the data were processed

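Total RNA of pig heart was labelled with biotin and hybridized to a 1-colour Affymetrix porcine array, per the labels' protocols. The authors deposited 1 value per probe set and array on a log2 scale. RMA and MAS5 are named in the submitters' processing notes without version or role, and the log base was taken from the range of values. Of 24123 probe sets, 124 control spots were left out. Symbols came from the platform's probe table, and all 52 members matched a RefSeq gene identifier with the same symbol. Group means were fitted to 20 arrays with limma 3.58.1 in R 4.3.3 (lmFit, eBayes, 16 residual degrees of freedom), with p adjusted over 23999 probe sets per comparison. The fit was tested on simulated data. Members, lists and tests were chosen with earlier results of these data known. Members called against control were given array by array by smallest p in RCS, the others by counts and ranges, and up to 3 genes per other list were named by smallest p in RCS. Alternatives were another normalization, centring, dim filter, spread model, array weights, replicate block, 2-group fits, the mean of probe sets, and arrays left out. In the main fit, the p-values rest on spread between animals within groups, estimated jointly over all 4 groups and not for each pair compared. Tables and figures used Python 3.11.15, pandas 2.3.3 and matplotlib 3.10.9.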

Additional observations from a re-analysis of the deposited data

Results flagged for a closer look

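In each group of 5, the gap between the highest or lowest array and its neighbour was set against the range of the group for the 28 genes called against control. In 9 of 112 groups that gap was above Dixon's critical share of 0.71, where chance gives about 1 in 20. On SWOP replicate 1, CD59 stood at 10.72 (others 10.59 to 10.61), CD74 at 11.83 (others 11.30 to 11.45), SLA-DMB at 9.03 (others 8.33 to 8.49) and SLA-DQA1 at 11.30 (others 10.56 to 10.71). SWOP replicate 1 is 1 of the 2 arrays of high spike-in signal. On control replicate 4, CD83 stood at 8.26 (others 6.66 to 7.02) and CD200 at 7.36 (others 6.60 to 6.78). CD300C was low on control replicate 3, at 6.22 (others 6.75 to 6.83). CD3G was high on RCO replicate 2, at 6.14 (others 5.44 to 5.62), and SLA-DQB1 was low on RCS replicate 1, at 10.86 (others 11.33 to 11.44).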

How the results depend on the processing

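No called gene changed direction under any alternative run (quantile normalization, median centring, dim probe sets left out, intensity trend with robust spread, array weights, replicate block, fits of 2 groups, mean of all probe sets, each array left out, and the left-out pairs). The count of called members in RCS against control was 26 to 29 in these fits, beside 50.8% to 62.2% of all genes called. It was 24 to 28 with 1 array left out, beside 46.9% to 54.6%, and 22 of its 27 calls were kept throughout. In RCO against control 2 of 13 calls were kept throughout, in RCO against SWOP 3 of 12, in RCS against SWOP 16 of 22 and in RCS against RCO 2 of 16. With only 2 groups fitted, the count was 7 in SWOP against control, 2 in RCO against control and 4 in RCO against SWOP. Beside these, 20.4%, 4.04% and 4.08% of all genes were called. It was 32 in RCS against SWOP and 2 in RCS against RCO, beside 45.7% and 3.93%. With array weights it was 10 in SWOP against control and 31 in RCS against SWOP, beside 26.5% and 51.6% of all genes. With quantile normalization it was 1 in SWOP against control, beside 4.23%. Without RCO replicates 2 and 3 it was 2 in RCO against control and 5 in RCO against SWOP, beside 7.32% and 6.33% of all genes. In RCS against RCO it was then 20 (beside 42.9% of all genes, against 21.6% with all arrays). With 1 array left out it ranged from 1 to 3 in SWOP against control, 6 to 17 in RCO against control, 4 to 17 in RCO against SWOP, 18 to 25 in RCS against SWOP and 9 to 17 in RCS against RCO. Whether the replicate numbers pair the animals cannot be told from the array values. Deviations of same-numbered arrays correlated at -0.18 to 0.44, above 0.1 in 10 of 30 pairs. Those of other-numbered arrays correlated at -0.47 to 0.46, above 0.1 in 19 of 120 pairs. With the replicate block the count was 3, 14, 29, 12, 23 and 16 for SWOP, RCO and RCS against control, RCO and RCS against SWOP, and RCS against RCO. Beside these counts, 10.3%, 18.3%, 56.3%, 14.5%, 40.1% and 25.5% of all genes were called. Leaving out the 2 arrays of high spike-in signal, an alternative chosen after seeing the data, gave 3, 17, 17, 22 and 13 for SWOP and RCO against control, RCO and RCS against SWOP, and RCS against RCO. Beside these counts, 12.6%, 18.2%, 15.7%, 39.3% and 13.9% of all genes were called. The causes were not tested. Signal over background cannot be read from the deposited values, so low signals such as CD79B or CD1E may lie near background.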
